A study of Mus musculus with 10 samples.

Results

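The 39 genes described here encode proteins of the large subunit of the cytosolic ribosome, and they were taken by their symbols from a fixed list. All 39 had reads, out of 13272 genes with a kept read, and they carried 292839 of the 2041970 kept reads. The reads came from native poly(A) RNA of P19 cells, a pluripotent mouse embryonal carcinoma line with a wild-type genotype, sequenced as single molecules on Nanopore flow cells, and each read gives the length of its own poly(A) tail. Undifferentiated cells had been transfected with a pool of scrambled siRNAs (siCtl) or with 1 siRNA against Larp1 (siLarp1), and were collected after 24 h (3 siCtl and 3 siLarp1 libraries) or after 48 h (2 and 2 libraries). The 48 h cells of both treatments received a further transfection 24 h after the initial one, so time and the number of transfections cannot be told apart. The libraries are named by their numbers in the deposited table (19, 21 and 22 at 24 h, 24 and 25 at 48 h), since which labelled replicate each one is was not given. According to the methods of the study, replicates were biological and were barcoded and pooled. The 24 h libraries of each treatment formed pools of their own, so a pool difference and a siLarp1 effect cannot be told apart at 24 h. All 4 libraries of 48 h were sequenced in a single pool.

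Ribosomal protein mRNAs are among the most abundant mRNAs of growing cells, and their production is coordinated so that subunits assemble in balance. In mammals they belong to the TOP mRNAs, which start with a C followed by an uninterrupted run of pyrimidines (the 5′-terminal oligopyrimidine motif) and whose translation follows mTOR activity. LARP1 is an RNA-binding protein that holds the capped start of TOP mRNAs and also contacts the poly(A) tail and its binding protein, and the comparison of siLarp1 with siCtl asks how tails change when it is depleted. Tails were grouped here into the classes named in the study, <30 nt and ~60 nt (30 to 90 nt).

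To look for the motif in the genes on which the results turn, the 30 bases around the annotated transcription start were taken from RefSeq promoter sequences (build GRCm38.p6). Of these, 15 lie before the start and 15 from the start on. The longest run of at least 5 pyrimidines (C or T) beginning with C within 10 bases of the start, on either side, is in capitals. These are 6 of the 8 genes with the smallest p-values below, followed by the 3 genes with the lowest change, and the other 2 of the 8, Rpl23a and Rpl32, had no entry matched.
Rpl13 (chr8:123102335-123102364, plus strand): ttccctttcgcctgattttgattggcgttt
Rpl7a (chr2:26910792-26910821, plus strand): attccCTCTTCTTTCTTTCTCCagcagccg
Rpl4 (chr9:64173372-64173401, plus strand): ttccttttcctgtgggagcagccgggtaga
Rpl10a (chr17:28328456-28328485, plus strand): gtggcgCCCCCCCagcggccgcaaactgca
Rpl19 (chr11:98026909-98026938, plus strand): tgggctCTCCCCTTCgcagataatgggcgg
Rpl35 (chr2:39005117-39005146, minus strand): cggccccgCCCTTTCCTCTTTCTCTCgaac
Rpl12 (chr2:32961697-32961726, plus strand): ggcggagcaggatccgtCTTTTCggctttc
Rpl28 (chr7:4792950-4792979, plus strand): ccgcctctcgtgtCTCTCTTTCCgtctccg
Rpl23 (chr11:97782425-97782454, minus strand): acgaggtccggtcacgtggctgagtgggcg
Of the 39 genes, 31 matched a promoter entry by symbol. Such a run lay within 10 bases of the annotated start in 18 of the 31 (58.1%), against 30.7% of all 32851 promoters, and at the annotated start itself in 5 of the 31 (16.1%), against 2.51% of all promoters. The annotated start used for a window can lie away from the start of the transcript with most reads, by 493 nt in Rpl35, 153 nt in Rpl12, 91 nt in Rpl28 and at most 2614 nt (Rpl18), and it was 0 nt away in Rpl13, Rpl10a and Rpl19. For the former genes the printed window is thus not the start of the transcript that most reads were assigned to. A missing run says only that no such run begins within 10 bases of the annotated start. A marked run need not be part of the mRNA. In Rpl10a and Rpl19 it ends before the annotated start, and so lies upstream of the transcript as annotated. The count of 18 includes such runs. In Rpl13 and Rpl4 a run of at least 5 pyrimidines begins further upstream and is printed in lower case. In Rpl4 the transcript with most reads starts 12 nt from the annotated start, inside that run. Genes with a run beginning within 10 bases (Rpl7a, Rpl10a, Rpl19 and Rpl35) and without one (Rpl13 and Rpl4) were both among those with the smallest p-values. Rpl12 and Rpl28, at the other end of the order, had one.

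The libraries held 112720 to 423398 kept alignments, with the 3 siCtl libraries at 24 h the deepest. Larp1 was at 75.9, 84.2 and 85.0 RPM (reads scaled to a common library total of kept reads) in the siCtl libraries at 24 h and at 33.4, 44.9 and 19.1 RPM in the siLarp1 libraries. At 48 h it was at 169 and 123 RPM in siCtl and at 18.5 and 24.9 RPM in siLarp1. The groups thus did not overlap at either time point, and siLarp1 libraries kept 39.7% and 14.9% of the siCtl mean. These values rest on few Larp1 reads. There were 22, 29 and 36 in siCtl and 4, 6 and 3 in siLarp1 at 24 h, and 19 and 22 against 3 and 3 at 48 h. Of 10 markers of embryonal carcinoma cells fixed for the check, 9 had reads, summing to 3637 to 5010 RPM per library. Neuronal markers summed to 199 to 372 RPM (5 of 6 with reads), fibroblast markers to 157 to 290 RPM (4 of 4), endoderm markers to at most 6.37 RPM (2 of 4), and mesoderm markers to 32.0 to 106 RPM at 24 h and 213 to 465 RPM at 48 h in both treatments (3 of 3). The fibroblast sum at 24 h differed between the treatments without overlap, at 245 to 282 RPM in siCtl and 157 to 216 RPM in siLarp1, most of it from Vim. The embryonal carcinoma sum at 48 h did so as well, at 4220 to 4613 RPM in siCtl and 4969 to 5010 RPM in siLarp1. The part of these markers in the results below was not tested.

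Across the 39 genes together, short tails were more frequent in every siLarp1 library than in every siCtl library of the same time point. At 24 h, 2.08%, 1.83% and 2.06% of their reads had a tail under 30 nt in siCtl libraries 19, 21 and 22, and 3.20%, 3.38% and 3.46% in siLarp1 libraries 19, 21 and 22. The mean went from 1.99% ± 0.134 to 3.35% ± 0.135 (SD, n = 3), a difference of 1.36 percentage points. At 48 h the shares were 2.87% and 2.54% in siCtl and 4.57% and 4.37% in siLarp1, a difference of 1.77 points between means of 2.70% ± 0.233 and 4.47% ± 0.139 (SD, n = 2). These pooled shares are given as a description without a test. In all other genes the mean went from 2.31% ± 0.189 to 2.75% ± 0.387 at 24 h, with overlapping groups. At 48 h it went from 2.92% ± 0.0743 to 3.69% ± 0.658, with groups that did not overlap. These other genes include 10 further large-subunit and 34 small-subunit genes, which also gained short tails. The small-subunit genes had 2.77% and 2.14% in siCtl and 4.75% and 4.39% in siLarp1 at 48 h. Shares of the other genes without these 2 lists were not computed. For the 39 genes the difference at 48 h was present in both of the 2 sequencing runs. Run 1 gave 2.83% and 2.46% in siCtl against 4.60% and 4.47% in siLarp1. Run 2 gave 2.98% and 2.76% against 4.48% and 4.11%.

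Most of the added short tails were close to the 30-nt limit. Tails of 20 to 30 nt went from 1.70% to 2.79% of the reads at 24 h and from 2.29% to 3.46% at 48 h, and tails of 10 to 20 nt from 0.262% to 0.521% and from 0.345% to 0.930%, with no overlap of the groups in any of these. Tails under 10 nt made up 0.0278% and 0.0341% of the reads at 24 h, with overlapping groups. Tails of 30 to 60 nt were also more frequent at 24 h, at 17.7% ± 1.36 and 19.4% ± 0.175, without overlap, and at 48 h they were at 20.9% ± 1.08 and 20.2% ± 0.956, with overlap. In siCtl at 24 h the pooled median tail reached 97.3 nt ± 2.56, against 94.4 nt ± 1.21 in siLarp1 (SD, n = 3), again without overlap. At 48 h the medians of 91.1 nt ± 1.53 and 92.1 nt ± 2.73 overlapped (SD, n = 2). For comparison, the median over all other genes was 104 nt in both treatments at 24 h, and 99.0 nt and 101.6 nt at 48 h.

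**Figure D1:**
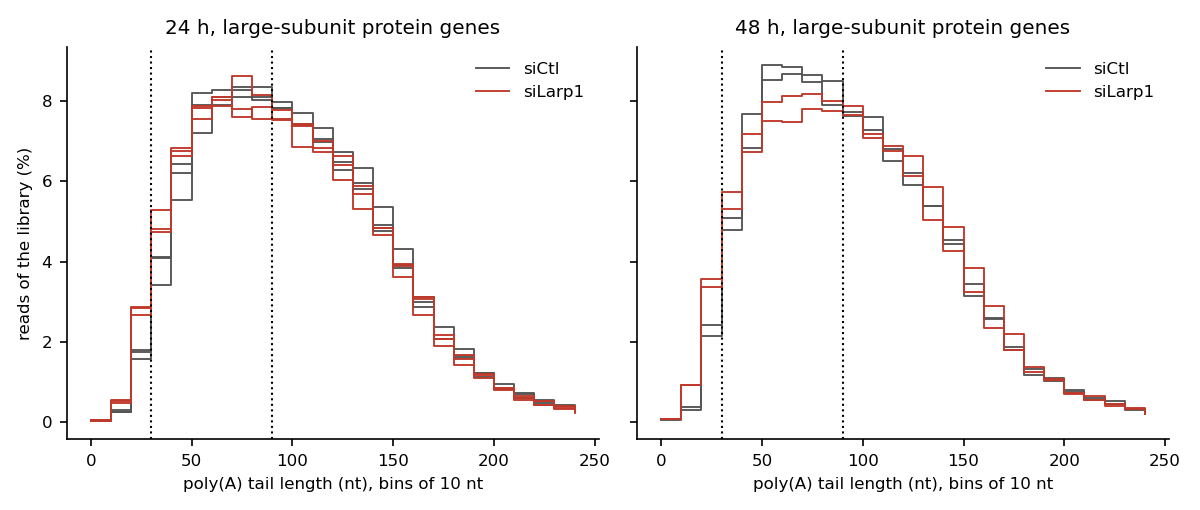
Distribution of poly(A) tail lengths of reads from the 39 large-subunit protein genes, as the percentage of the library's reads from these 39 genes (y axis) in bins of 10 nt (x axis, up to 250 nt), with 1 line per library and dotted lines at 30 and 90 nt. From 10 to 30 nt the red siLarp1 lines lie above the grey siCtl lines at both times, and at 24 h they do so up to 50 nt, while at 48 h they lie below them from 50 to 80 nt.

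Gene by gene, a quasi-binomial logistic model of reads inside and outside the class (limma's moderated dispersion, Benjamini-Hochberg adjusted p under 0.05 over all genes tested) was fitted over the whole table. Changes are log2 odds ratios of siLarp1 over siCtl. At 24 h, 7 of the 39 genes rose (Rpl13, Rpl23a, Rpl24, Rpl27a, Rpl32, Rpl35a and Rpl7a) and none fell, against 0.897% of the 1561 genes tested called higher. An unadjusted p under 0.05 in that direction was reached by 32 of the 39 (7.62% of all genes tested), and 37 had a change above 0 (56.8%). The 7 calls were lost without siLarp1 library 19 or with libraries thinned to equal depth, and the count was 1 with all quality tags and 16 without siCtl library 22. After 48 h, 9 rose (Rpl10a, Rpl13, Rpl22l1, Rpl23a, Rpl3, Rpl32, Rpl34, Rpl35 and Rpl4) and none fell, against 3.9% of 718 genes. Here 21 reached an unadjusted p under 0.05 (16.2%) and 38 had a change above 0 (67.4%). At 48 h the model used 1 dispersion for all genes, so a gene's own spread between libraries did not enter its p-value. Leaving out siCtl library 25, siLarp1 library 24 or siLarp1 library 25 gave 0 calls at 48 h, and equal depth gave 1. With 1 treatment term over both time points, 24 of the 39 rose and none fell, against 3.22% of 1861 genes called higher and 0.0537% called lower. This count was 13 at equal depth, 13 without siLarp1 library 21 or 22, and 15 without siLarp1 library 24. The median change of the 39 genes was 0.85 at 24 h, 0.84 at 48 h and 0.80 over both, beside medians over all genes tested of 0.23, 0.55 and 0.22. Over both time points the change was above 0 in all 39 genes (58.9% of all genes tested), from 0.31 in Rpl12 to 1.64 in Rpl35, and an unadjusted p under 0.05 was reached by 35 of them (9.67% of all genes tested).

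By the values of single libraries, 26 genes had siLarp1 libraries all above the siCtl libraries at 24 h (7.69% of all genes tested) and 27 at 48 h (30.9%), and none and 1 had them all below (5.51% and 9.33%). Groups were apart in the same direction at both time points in 15 genes, namely Rpl10a, Rpl13, Rpl17, Rpl19, Rpl23a, Rpl26, Rpl29, Rpl30, Rpl32, Rpl37, Rpl37a, Rpl4, Rpl41, Rpl7a and Rpl8, against 7.07% of 693 genes. An exact permutation test of 1 gene cannot give p below 0.1 at 24 h or 0.333 at 48 h. Stratified over both, its smallest possible value is 0.0167 (two-sided, unadjusted). Any gene with groups apart in the same direction at both time points reaches this value by construction, so for these 15 genes it adds nothing to their selection.

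**Figure D2:**
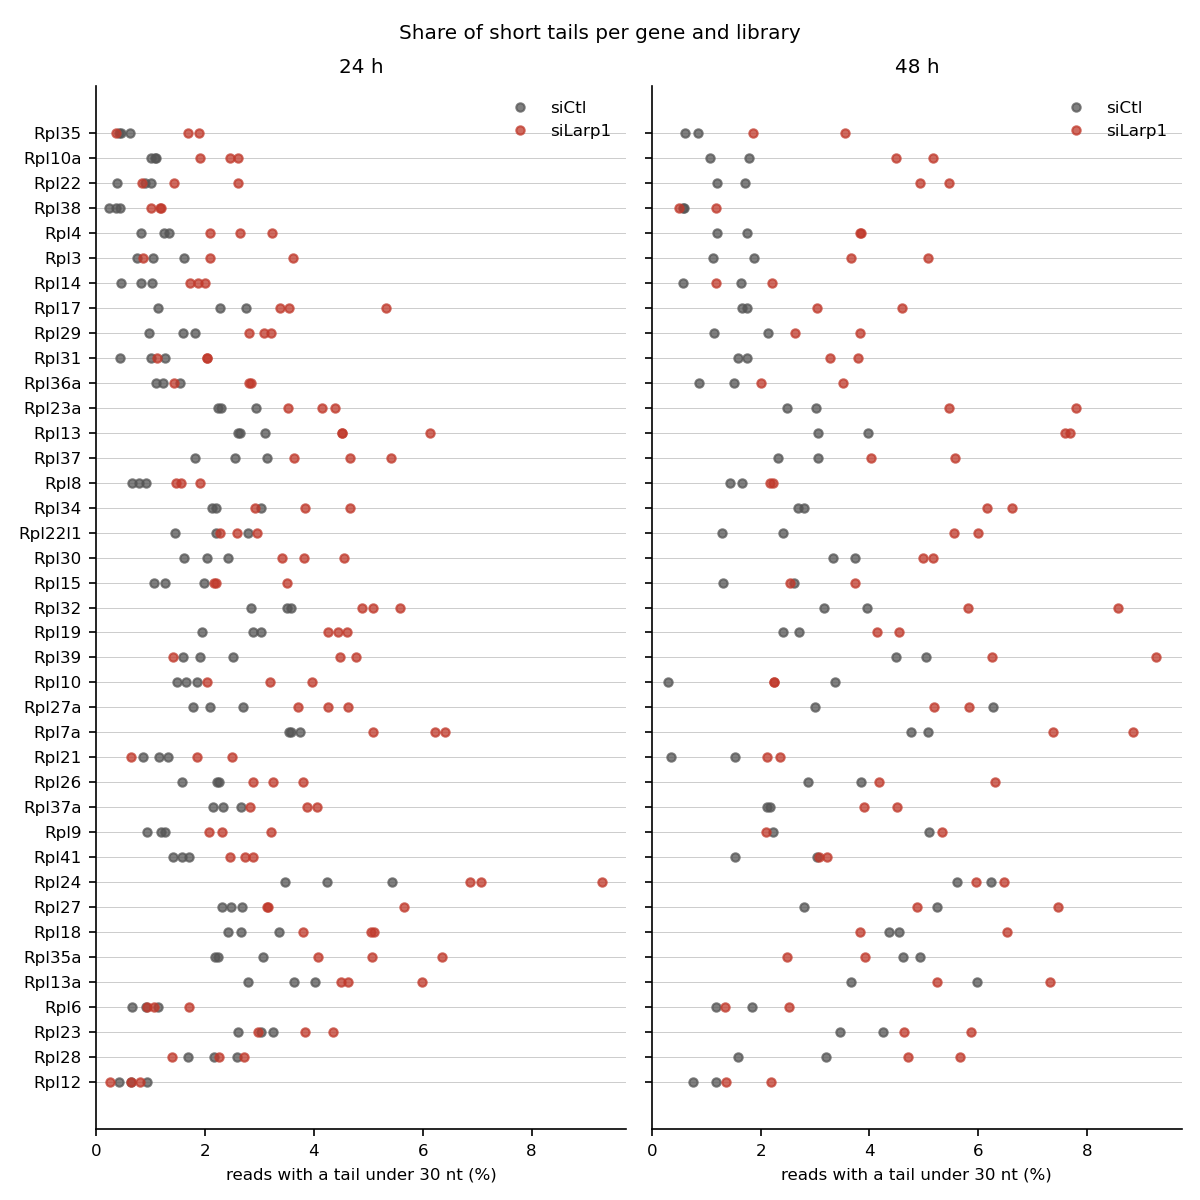
Percentage of a gene's reads with a tail under 30 nt (x axis) in each siCtl (grey) and siLarp1 (red) library at 24 h and 48 h, for the 39 genes ordered by their log2 odds ratio over both time points, lowest at the bottom. Red points lie to the right of all grey points in 26 genes at 24 h and in 27 at 48 h, and to the left in Rpl35a at 48 h.

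The proteins that line the exit tunnel, through which the nascent chain leaves the ribosome, or its rim had the largest share of called genes over both time points. This was 8 of 9, with a median change of 0.99, while the paralog pair had a higher median (1.13). At 24 h alone 1 of the 9 was called, against 5 of the 16 surface genes, and at 48 h 3 of the 9 against 3 of the 16. The sets were not tested against each other. Rpl23a, whose protein is a docking site for factors that receive the nascent chain, had the smallest p-value of the 39 genes. Its <30-nt share was 2.93%, 2.30% and 2.24% in siCtl and 4.14%, 3.52% and 4.39% in siLarp1 at 24 h. After 48 h it was 3.03% and 2.49% in siCtl and 7.80% and 5.46% in siLarp1. Every siLarp1 library was thus above every siCtl library of its time point, and the gene rose at 24 h (log2 odds ratio 0.74 ± 0.18 SE, adjusted p = 0.0323) as well as at 48 h (1.39 ± 0.25, adjusted p = 7.39e-06).

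Rpl4, which reaches with a long loop into the tunnel wall and which the study pointed out, had a lower starting level. Its share was 0.833%, 1.25% and 1.33% in siCtl and 3.23%, 2.64% and 2.08% in siLarp1 at 24 h, and 1.75% and 1.19% against 3.83% and 3.85% at 48 h. The groups were apart at both times, with a log2 odds ratio of 1.29 ± 0.25 SE over both (adjusted p = 0.000329). The test was passed at 48 h (adjusted p = 0.0177) and missed at 24 h (adjusted p = 0.0656). Rpl19, which reaches from the tunnel side to the subunit interface, had 3.03%, 1.94% and 2.88% in siCtl and 4.60%, 4.45% and 4.26% in siLarp1 at 24 h, and 2.41% and 2.71% against 4.55% and 4.15% at 48 h. It was called only over both time points together (0.79 ± 0.16, adjusted p = 0.000816), with nearly the same ratio of means at 24 h (1.69) and 48 h (1.70). Rpl35, at the tunnel rim, had few short tails in siCtl, with 0.626%, 0.451% and 0.427% at 24 h and 0.847% and 0.604% at 48 h. In siLarp1 it had 1.69%, 0.368% and 1.90% at 24 h and 1.86% and 3.56% at 48 h, so that library 21 lay below all siCtl libraries and the groups overlapped at 24 h. It had the highest change over both time points (1.64 ± 0.36 SE, adjusted p = 0.00117). Rpl17, Rpl26, Rpl31 and Rpl38 were the other genes called in this set, and Rpl39, a very small protein in the tunnel wall, was not (adjusted p = 0.0607).

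Of the proteins at the catalytic core and the interface with the small subunit, 5 of 9 rose over both time points (Rpl3, Rpl15, Rpl24, Rpl30 and Rpl41), with a median change of 0.82. Rpl3 reaches toward the peptidyl transferase centre, and its change over both was 1.23 ± 0.31 SE (adjusted p = 0.00859). Rpl41, the smallest protein of the ribosome and the gene with the most reads here (15141), had 1.57%, 1.42% and 1.71% in siCtl and 2.73%, 2.88% and 2.46% in siLarp1 at 24 h. In the 48 h libraries it had 3.05% and 1.53% in siCtl and 3.22% and 3.07% in siLarp1, where library 24 of siCtl lay just below both siLarp1 libraries. It was called over both time points (0.71 ± 0.17, adjusted p = 0.00718). With alignments of mapping quality of at least 10 only, however, its change at 48 h was -0.35, and 73.1% of its reads were under that limit. Rpl24 had the highest share of short tails of all 39 genes in siCtl, with a mean of 4.38% ± 0.985 (SD, n = 3) at 24 h, and rose to 7.75% ± 1.34 in siLarp1 (adjusted p = 0.0267). At 48 h its values were 6.23% and 5.62% in siCtl against 6.47% and 5.95% in siLarp1, with overlapping groups. Rpl23, which sits at the interface and is also among the genes with the most reads, had one of the lowest changes, with 3.25%, 2.60% and 3.03% against 2.97%, 4.35% and 3.85% at 24 h and 4.25% and 3.45% against 5.87% and 4.64% at 48 h (0.42 ± 0.15 SE, adjusted p = 0.122).

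The surface and inner shell of the subunit were the largest set, and 10 of its 16 genes rose over both time points, with a median change of 0.76. Rpl13 had 2.64%, 2.61% and 3.10% in siCtl and 6.14%, 4.52% and 4.52% in siLarp1 at 24 h. At 48 h it had 3.06% and 3.97% in siCtl and 7.69% and 7.60% in siLarp1, the largest difference at that time (4.13 points). It rose at 24 h (0.86 ± 0.20 SE, adjusted p = 0.0262) and at 48 h (1.13 ± 0.27, adjusted p = 0.00143). Rpl32 had 2.84%, 3.50% and 3.58% against 5.09%, 4.89% and 5.58% at 24 h, and 3.16% and 3.95% against 8.56% and 5.81% at 48 h. It rose at both time points (adjusted p = 0.0267 and 0.000176). Rpl13, Rpl23a and Rpl32 were the 3 genes called at each time point separately.

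Rpl7a, a protein of the solvent side, had more short tails in siCtl than most others. Its shares were 3.74%, 3.57% and 3.55% in siCtl and 5.09%, 6.40% and 6.22% in siLarp1 at 24 h, and 4.77% and 5.07% against 8.83% and 7.38% at 48 h. The groups were apart at both times (0.77 ± 0.14 SE over both, adjusted p = 0.000287). The test was passed at 24 h (adjusted p = 0.0317) and missed at 48 h (adjusted p = 0.0585). Rpl14, Rpl27, Rpl27a, Rpl29, Rpl34, Rpl37 and Rpl37a were also called. Rpl28, a protein that budding yeast lacks, had 1.69%, 2.17% and 2.59% in siCtl and 1.40%, 2.26% and 2.73% in siLarp1 at 24 h, a change of -0.0028 with an interval of 2 SE on either side from -0.66 to 0.65. After 48 h it had 1.58% and 3.19% against 4.70% and 5.66% (1.02 ± 0.41, adjusted p = 0.156), and the difference between its changes had an unadjusted p of 0.0407 (adjusted p = 0.607). Other genes of this set that were not called were Rpl6, Rpl13a, Rpl18, Rpl21 and Rpl35a.

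Of the 3 genes of the stalks and the stalk base, only Rpl10a rose. It forms the mobile stalk beside which tRNAs leave the ribosome, and its share was 1.11%, 1.01% and 1.07% in siCtl and 1.90%, 2.47% and 2.61% in siLarp1 at 24 h. In the 48 h libraries it was 1.79% and 1.08% in siCtl and 5.18% and 4.49% in siLarp1, with no overlap at either time (1.44 ± 0.29 SE over both, adjusted p = 0.000767). Rpl12, at the base of the stalk that recruits elongation factors, had the lowest change of the 39 genes. Its shares were 0.648%, 0.423% and 0.931% in siCtl and 0.247%, 0.644% and 0.800% in siLarp1 at 24 h, and 1.19% and 0.765% against 1.36% and 2.20% at 48 h. The groups overlapped at 24 h, and its change over both (0.31, adjusted p = 0.861) had an interval of 2 SE on either side from -0.50 to 1.13, which holds the median change of the 39 genes. Of the reads of Rpl12, 94.5% had a mapping quality under 10.

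Rpl22 and Rpl22l1 encode a paralog pair whose proteins can replace each other in the ribosome. Rpl22 had 0.893%, 0.387% and 1.01% in siCtl and 2.60%, 1.42% and 0.844% in siLarp1 at 24 h, and 1.20% and 1.72% against 5.46% and 4.93% at 48 h. Rpl22l1 had 2.20%, 1.46% and 2.80% against 2.27%, 2.59% and 2.96% at 24 h, and 2.41% and 1.29% against 5.56% and 6.00% at 48 h. Both overlapped between the treatments at 24 h and were apart at 48 h, where Rpl22l1 rose (1.84 ± 0.62 SE, adjusted p = 0.0402) and Rpl22 missed the test (1.85 ± 0.70, adjusted p = 0.0823). Over both time points neither was called (adjusted p = 0.219 for Rpl22l1 and 0.0561 for Rpl22), and Rpl22 had the fewest reads of the 39 genes (2922).

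Rpl35a, a protein of the subunit surface, moved in opposite directions at the time points. Its share was 3.07%, 2.19% and 2.24% in siCtl and 6.35%, 4.07% and 5.07% in siLarp1 at 24 h, where it rose (1.11 ± 0.24 SE, adjusted p = 0.0229). At 48 h it was 4.61% and 4.93% in siCtl and 3.92% and 2.48% in siLarp1, the only gene of the 39 with all siLarp1 libraries below siCtl (-0.56 ± 0.37, adjusted p = 0.459). The change at 48 h minus that at 24 h was -1.67 (unadjusted p = 6.00e-05, adjusted p = 0.112), so the difference did not pass the adjusted threshold. No gene of the 39 or of all 1861 tested passed it. Before adjustment, p under 0.05 was reached with a higher change at 48 h in 3 of the 39 genes (Rpl22l1, Rpl23a and Rpl28) and with a lower one in 2 (Rpl24 and Rpl35a), against 4.67% and 2.96% of all genes tested. The difference was above 0 in 19 of the 39 genes (54.5% of all genes).

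**Figure D3:**
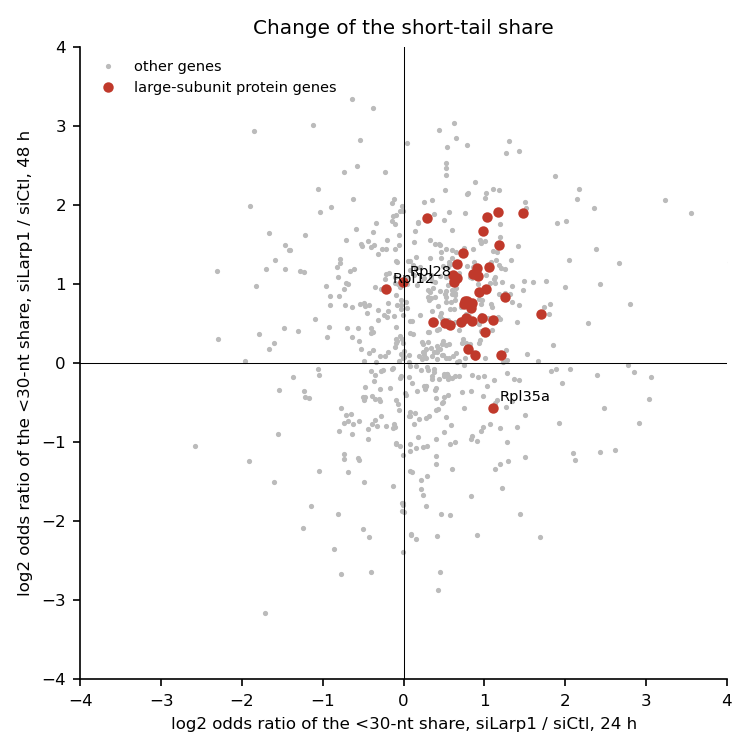
Log2 odds ratio of the <30-nt share, siLarp1 over siCtl, at 24 h (x axis) and 48 h (y axis) for the 636 genes in both fits, with the 39 large-subunit protein genes in red and the others in grey (1 gene lies outside the axes at ±4). Of the 39 genes, 36 are above 0 at both time points, against 258 of the 597 other genes (43.2%), and Rpl35a, Rpl12 and Rpl28 are labelled as the 3 that are not.

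The size of the change at one time point did not order the genes at the other. Across the 39 genes the changes at 24 h and 48 h had a Pearson correlation of 0.0073 and a Spearman correlation of 0.068, given as a description over genes from different libraries. The levels themselves kept their order: the <30-nt share in siCtl at 24 h correlated with that at 48 h at 0.83 (Pearson), and the median tail at 0.95. In siCtl at 24 h the <30-nt share ranged from 0.347% in Rpl38 to 4.38% in Rpl24, with a median over the 39 genes of 2.01%, and the median tail from 80.8 nt in Rpl24 to 110 nt in Rpl9. Genes with longer median tails had fewer short tails in the same libraries (Pearson -0.86, both taken from the same reads). The length of the leading transcript had little relation to the change over both time points (-0.028).

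Other ribosomal protein genes were fitted in the same way. Over both time points 4 of 10 further large-subunit genes and 20 of 34 small-subunit genes rose, with median changes of 0.95 and 0.91. Of 16 other TOP genes, which encode translation factors and the like, 1 rose, with a median of 0.34, and of the 39 mitochondrial large-subunit genes that could be tested (49 listed) none rose or fell, with a median of -0.16 and 1 gene each at an unadjusted p under 0.05 in either direction. Whether these lists differ from the 39 genes was not tested.

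The ~60-nt class gave 1 call. At 24 h Rpl23a rose (0.315% of 1907 genes tested were called higher), from 44.0%, 38.4% and 43.4% in siCtl to 45.1%, 49.1% and 46.5% in siLarp1 (log2 odds ratio 0.30 ± 0.07 SE, adjusted p = 0.00744). At 48 h its values were 48.4% and 44.7% in siCtl and 43.7% and 43.4% in siLarp1, with an adjusted p of 0.693. Before adjustment, 10 of the 39 genes were higher and 3 lower with p under 0.05 at 24 h, against 2.73% and 4.35% of the genes tested. No gene of the 39 passed the test at 48 h (nor did any of the 843 tested), where 9 were lower and 1 higher at an unadjusted p under 0.05, against 7.47% and 1.54% of the genes tested. The groups were apart in 8 genes at 24 h, 7 of them higher in siLarp1 (5.14% of genes tested), and in 21 at 48 h, 18 of them lower (28.6%). Over the 39 genes together the ~60-nt share was 42.2% ± 1.82 in siCtl and 43.3% ± 0.688 in siLarp1 at 24 h, with overlapping groups, and 46.5% ± 0.908 and 43.9% ± 1.88 at 48 h. It was lower at 48 h in all other genes too, at 40.4% ± 0.653 and 37.7% ± 2.04.

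No median tail of the 39 genes passed limma's test at either time point (0 of 1907 and 0 of 843 genes tested). Before adjustment, 9 were shorter and none longer with p under 0.05 at 24 h, against 2.78% and 3.3% of the genes tested. At 48 h 1 was shorter and 2 longer (2.02% and 4.39%). Groups were apart in 8 genes at 24 h, all shorter in siLarp1 (5.82%), and in 11 at 48 h, 7 longer (23.1%) and 4 shorter (12.1%). The change at 24 h was nearest to the threshold in Rpl23a, whose median was 93.9, 102 and 95.8 nt in siCtl and 92.1, 87.3 and 88.6 nt in siLarp1 (fitted change -8.30 nt ± 1.85 SE, adjusted p = 0.0604). After 48 h it was Rpl35, with 98.2 and 98.5 nt against 86.5 and 89.3 nt (-10.68 ± 2.72, adjusted p = 0.650). The fitted change was above 0 in 8 of 39 genes at 24 h (55.2% of all genes tested) and in 20 at 48 h (61.4%).

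The 39 genes made up 14.8% ± 0.258 of the kept reads in siCtl and 14.7% ± 0.292 in siLarp1 at 24 h (SD, n = 3), with overlapping groups. At 48 h their share was 13.9% ± 0.0847 in siCtl and 12.6% ± 0.294 in siLarp1 (SD, n = 2), with both siLarp1 libraries below both siCtl libraries (12.4% and 12.8% against 13.9% and 14.0%). These are shares of a library, so less RNA of these genes and more RNA of other genes cannot be told apart. With limma voom on the reads per gene, no gene of the 39 passed the adjusted threshold at 24 h or 48 h, nor did any of the 4800 and 2704 genes tested. Larp1, with 100 reads at 24 h and 47 at 48 h, was among the genes tested, so this test also missed the siRNA target. Before adjustment, p under 0.05 was reached by 2 of the 39 genes that were higher and 3 that were lower at 24 h (3.5% and 2.1% of genes tested). In the 48 h libraries it was reached by 16 that were lower and none that was higher (2.4% and 2.59%). The fitted change was above 0 in 14 of 39 genes at 24 h (51.1% of genes tested) and in 3 at 48 h (53.2%), where it had a median of -0.16 on the log2 scale beside 0.02 over all genes tested. With another scaling (median-ratio size factors) it was below 0 in all 39. The 16 surface genes had a median of -0.24, the 9 tunnel genes -0.11 and the 9 core and interface genes -0.063.

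The abundance of single genes moved by small amounts. Rpl14 was at 2910, 3216 and 3238 RPM in siCtl and at 3346, 3589 and 3706 RPM in siLarp1 at 24 h, with every siLarp1 library higher (log2 change 0.18 ± 0.06 SE, adjusted p = 0.826). Rpl27a was at 4339, 4561 and 4497 RPM against 3821, 4367 and 4031 RPM, with overlapping groups (-0.14 ± 0.05, adjusted p = 0.826). At 48 h Rpl23 was at 6051 and 5837 RPM in siCtl and at 4628 and 5185 RPM in siLarp1 (-0.28 ± 0.07, adjusted p = 0.367). Rpl34 was at 3300 and 3789 RPM against 2703 and 2879 RPM (-0.37 ± 0.10, adjusted p = 0.367). Both were lower in each siLarp1 library, as were 26 of the 39 genes at 48 h (15.9% of genes tested), while none was higher (18.2%). At 24 h the groups were apart in 7 genes, 4 higher and 3 lower (4.69% and 6.19%).

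**Figure D4:**
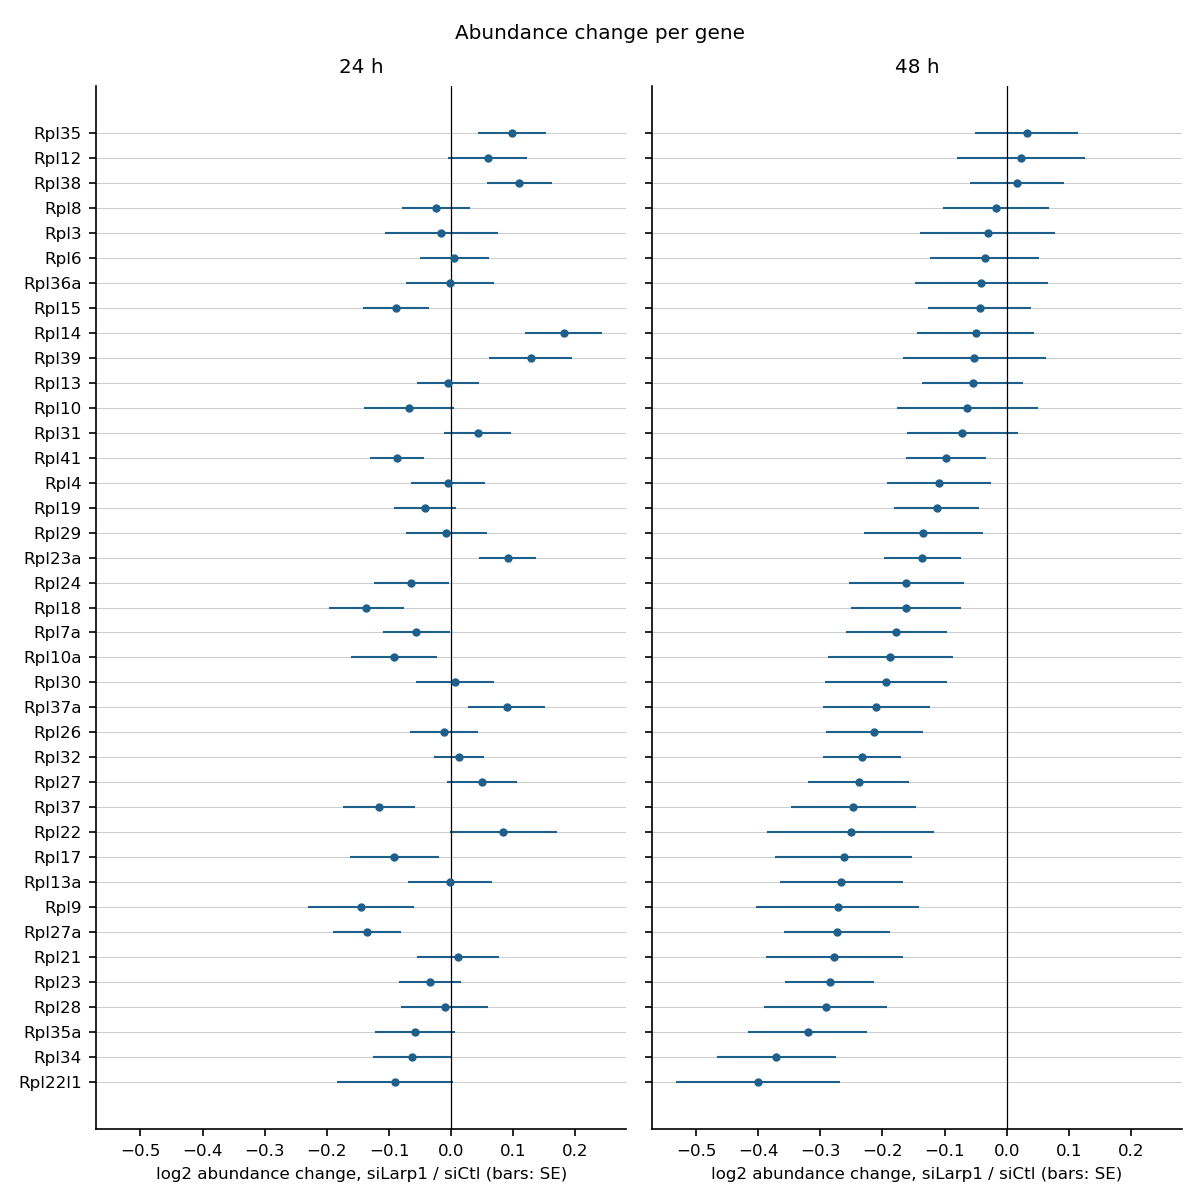
Log2 change of abundance, siLarp1 over siCtl (x axis, points with SE bars from limma voom), of the 39 genes at 24 h and 48 h, ordered by the value at 48 h with the lowest at the bottom. At 24 h the points lie on both sides of 0, from -0.14 to 0.18, and at 48 h 36 of 39 lie below 0.

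Large-subunit genes have many processed pseudogenes, and most of the 39 genes had reads on several of their own transcripts. Per library, 33.7% to 38.2% of the reads of the 39 genes had a mapping quality under 10. By gene this went from 0.0135% of the reads of Rpl4 to 99.8% of those of Rpl17. The transcript these reads came from is thus uncertain. Whether the low scores stem from copies of a gene or from transcripts of the same gene was not tested. Among the 12 genes with fewer than 20% of their reads under that limit, 8 rose over both time points (median change 0.78). Among the other 27 genes 16 rose (0.85). The share of reads whose tail passed the quality tag was higher in siLarp1 (87.3% ± 0.634) than in siCtl (85.1% ± 0.582) at 24 h, without overlap (SD, n = 3). At 48 h it was 87.6% in siLarp1 and 87.5% in siCtl, with overlap. With all quality tags the pooled rise of the <30-nt share was 1.31 points at 24 h and 2.01 at 48 h, while 1 gene rose at 24 h, 14 at 48 h and 26 over both time points. Reads that began within 50 nt of the transcript start and reads that began further in both had more short tails in every siLarp1 library, with means of 2.22% and 3.76% for the former and 1.88% and 3.15% for the latter at 24 h. The precision is set by the few short tails of a gene, 22 (Rpl22) to 383 (Rpl32) reads over the 6 libraries at 24 h and 19 (Rpl21) to 187 (Rpl32) over the 4 at 48 h.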

How the data were processed

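Direct RNA reads of 10 P19 libraries were analysed, assigned to groups by the treatment and time in their names. The authors called bases with Guppy, aligned reads with Minimap2 (2.20) to mm10 transcripts of GENCODE vM17 and estimated tails with Nanopolish. Each line of the deposited table is an alignment of a read and gives its tail length (nt), the confidence of its barcode (a fraction from 0 to 1) and a mapping quality score, unfiltered. It held 2652217 alignments of 2577272 reads. Reads with the tag PASS on mRNAs were kept, without mitochondrial transcripts and pseudogenes, and counted once per gene, which left 2042110 alignments. Abundance is RPM of kept reads.

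Tail classes were fitted per gene (at least 100 reads, 5 per library and 3 in the class) with a quasi-binomial model in R 4.3.3 and limma 3.58.1 (squeezeVar), medians with limma weighted by reads, and abundance with limma voom (at least 30 reads), all with adjusted p under 0.05. Dispersions had medians near counting error (1.03 at 24 h, 1.01 at 48 h). In both class fits at 48 h and in the fit of the difference between time points, all genes shared 1 value. Values per library were handled with Python 3.11.15 and pandas 2.3.3, and exact tests used all relabellings. Scripts were tested on simulated data. For the <30-nt share, reads were drawn with counting error only, and 200 of all genes tested were changed. At a log2 odds ratio of 1 the fits called 1.5% of them at 24 h, 2% at 48 h and 3.5% over both. At 1.5 they called 4.5%, 12.5% and 16.5%. A gene not called is thus not shown to be unchanged. Among unchanged genes, 4.25% to 7.89% had an unadjusted p under 0.05. In fits with 1 shared dispersion, p-values rest on the read counts and that value, and a gene's own spread between libraries does not enter. In the other class fits a gene's own spread enters but is drawn toward a value common to all genes. All p-values concern these libraries only. Sequences are RefSeq promoters (GRCm38.p6).

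The members, the lists and the tests were chosen with earlier results of these data known. Values in every library are given for the 8 genes with the smallest p over both time points, the 3 with the lowest change, the 5 with the most reads, Rpl4, the paralog pair, and for abundance the 2 with the smallest p at each time point; Rpl35a was added after its values were seen. Alternatives covered mapping quality, single alignments, barcode confidence, quality tags, leading transcripts, equal depth, class limits, limma on log2 odds, filters, scaling, a replicate block and each library left out. Same-numbered siCtl and siLarp1 libraries were not treated as pairs.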

Additional observations from a re-analysis of the deposited data

Results flagged for a closer look

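Rpl35a had a higher <30-nt share in every siLarp1 library at 24 h (by 2.66 percentage points) and a lower one in every siLarp1 library at 48 h (by -1.57 points), so the change at 48 h was -4.23 points from that at 24 h. The interaction test of the log2 odds gave an adjusted p of 0.112. In the ~60-nt class the same opposite order of the libraries was seen for Rpl23a, with 4.95 points at 24 h and -3.02 at 48 h (-7.96 between them), and for Rpl37a, with 3.68 and -1.31 points (-4.99 between them). The difference between time points was not tested for the ~60-nt class. The groups held 2 or 3 libraries, too few for a check of single outlying libraries.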

How the results depend on the processing

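The change of the <30-nt share kept its direction for 8 of the genes with the smallest p over both time points under every alternative that was run over both. Counts depended more on the settings. Of the 39 genes, the number that rose at 24 h was 7 and became 4 with mapping quality of at least 10, 1 with all quality tags, 0 at equal depth, 2 and 18 with limits of 20 and 40 nt, 32 with limma on log2 odds and 13 with at least 300 reads. At 48 h it was 9 and became 3 with mapping quality of at least 10, 14 with all quality tags, 4 with leading transcripts only, 1 at equal depth, 1 with a limit of 20 nt and 15 with limma on log2 odds. Over both it was 24 and became 13 at equal depth and 5 with a limit of 20 nt. Leaving out 1 library gave 0 (without siLarp1 19) to 16 (without siCtl 22) at 24 h, with 2 to 4 without each of the others. At 48 h it gave 0 in 3 of 4 cases (without siCtl 25, siLarp1 24 or siLarp1 25) and 9 without siCtl 24. It gave 13 (without siLarp1 21 or 22) to 24 over both, with 15 without siLarp1 24, and 0 to 1 for the difference between time points, where limma on log2 odds gave 1. The ~60-nt call at 24 h (1, higher) became 0 with mapping quality of at least 10 or at equal depth. It also became 0 with limits of 40 to 80 nt or at least 300 reads. With all quality tags there were 3 calls, 2 higher and 1 lower. Leaving out 1 library gave 0 to 2 calls, and the 1 call without siCtl 21 was in the opposite direction, lower in siLarp1. At 48 h the count was 0 to 6 (6 without siLarp1 24, all lower). For the median tail at 24 h (0), 1 gene was shorter with mapping quality of at least 10, single alignments, all quality tags, leading transcripts, at least 300 reads or the mean of log2 tails, and 0 to 1 without 1 library. For abundance at 48 h (0), 1 fell with at least 10 reads, and 0 to 1 without 1 library. The pooled rise (1.36 points at 24 h, 1.77 at 48 h) was 0.265 and 0.598 with a limit of 20 nt, 2.43 and 2.34 with 40 nt, and at 48 h 2.04 with mapping quality of at least 10, 2.01 with all quality tags and 1.43 in sequencing run 2, with ranges of 1.28 to 1.43 and 1.60 to 1.93 without 1 library. The cause was not tested.

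Same-numbered libraries did not pair (correlations of their deviations 0.048, 0.18 and 0.047 at 24 h and 0.025 at 48 h). With the number as a replicate block, 7 genes rose at 24 h, 0 at 48 h and 13 over both, 2 differed between time points, the ~60-nt class gave 0, the median tail 1 and abundance at 24 h 4.

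Single genes that turned direction were Rpl28 at 24 h (0.15 with mapping quality of at least 10, 0.060 with barcode confidence of at least 0.9, 0.094 with all quality tags, 1.06 at equal depth, 0.22 with 40 nt, 0.063 with limma, 0.0016 with the block, -0.23 to 0.19 without 1 library, above 0 without siCtl 22 or siLarp1 19), Rpl12 at 24 h (0.31 with 20 nt, 0.41 with 40 nt, -0.56 to 0.16 without 1 library, above 0 without siCtl 22 or siLarp1 19, the latter 0.099), Rpl22l1 at 24 h (-0.31 with mapping quality of at least 10, -0.31 with barcode confidence), Rpl4 at 24 h (-0.0094 with 20 nt) and Rpl41 at 48 h (-0.35 with mapping quality of at least 10). Of all 861 values for single genes, these included, 708 kept direction and side of the threshold and 17 turned direction. Holding dispersions at or above 1, counting each gene once and the separate runs were chosen after seeing the data. Depth limits single genes, with 19 to 187 short tails per gene at 48 h.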
